A study of Mus musculus with 12 samples.

Results

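The genes described here encode complement proteins and their inhibitors. They are the C1 proteases C1ra and C1s1, the C1 inhibitor Serping1, the components C4b and C3, factor B (Cfb), factor I (Cfi) and the membrane inhibitor Cd55. These 8 members were given as a list and found by their GENCODE M21 symbols among the 55487 genes of the count table, and each matched 1 row.

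RNA was sequenced from 12 mouse libraries in 4 groups of 3. Hepa1, a mouse hepatoma line labelled wild type, was grown in medium taken from ferroptotic cells or from control cells. Bach1-/- pMEFs, primary mouse embryonic fibroblasts labelled Bach1 knockout and called MEFs here, were grown in the same kinds of medium. Immortalised MEFs had conditioned the medium for 48 h, and they were either control cells or cells that again expressed Bach1, which the labels call ferroptotic. All 4 groups shared the exposure of 4 days with daily replacement, 10% fetal bovine serum, 2-ME at 0.1 mM and vitamin E at 0.4 mg/mL. Ferroptosis is a form of cell death driven by iron and lipid peroxidation, and the BACH1 protein is a heme-binding repressor of iron and heme genes. Every Hepa1 library was wild type and every MEF library was Bach1 knockout, so cell type and genotype cannot be told apart. The labels leave the origin of the replicates unstated, and the p-values then reflect the spread among these libraries alone, which may be technical.

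Complement is a cascade of plasma and membrane proteins that marks targets for uptake and can lyse cells. In the classical pathway the protease C1r activates C1s, which cuts C4 and C2 into an enzyme that cleaves C3, and in the alternative pathway C3 and factor B form a second enzyme with the same action. Inhibitors act at each step, and the liver makes most of the plasma proteins, while fibroblasts secrete several of the early components.

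Total counts ran from 18.58 M to 23.4 M per library. Of 10 hepatocyte markers, Ttr, Apoa1 and Serpina1c had 0 reads in all Hepa1 libraries, and the summed level of the list was 1647 to 1797 CPM (counts relative to each library's total) in ferroptotic and 484 to 499 CPM in control medium. In MEFs that sum was 8.12 to 11.7 CPM in ferroptotic and 23.4 to 25.6 CPM in control medium, against a sum of 38524 to 39817 CPM and 45127 to 47050 CPM for 10 fibroblast markers. The macrophage markers Ptprc, Aif1, C1qa, C1qc and Tyrobp had 0 reads in all 4 groups, and the 12 listed macrophage genes together held 10.5 to 13.0 CPM in ferroptotic and 27.0 to 33.0 CPM in control Hepa1, and 7.61 to 8.88 CPM in ferroptotic and 4.14 to 5.25 CPM in control MEFs. Carry-over between cell types was measured in the 6 Hepa1 libraries. The 28 genes used had at least 500 CPM in both MEF groups and under 0.2 CPM in control Hepa1. Their sum in ferroptotic Hepa1 replicate 3 stood at 0.112% of the control MEF level, against 0.00732 and 0.0136% in the other ferroptotic libraries. In the control Hepa1 libraries it was 0.00417 to 0.00823%, but the choice of genes keeps these values low. At 0.112% of its level in ferroptotic MEFs, Serping1 would have 1.04 reads in ferroptotic Hepa1 replicate 3 and C1ra 2.05. In MEFs, the third ferroptotic replicate held 47 reads of Krt18, an epithelial keratin abundant in Hepa1 and named after its values were seen, against 2 and 2 in the other ferroptotic and 3, 6 and 3 in the control libraries. Without it 5 members were called in MEFs in place of 6, as C1s1 was lost. Results that rest on either replicate are given with and without it.

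The response in Hepa1 cells went upward for the C1 proteases, C3 and Cfi and downward for C4b. Of the 8 members, 5 passed the filter on low counts, and of these 4 rose and 1 fell in ferroptotic relative to control medium (edgeR's quasi-likelihood test, Benjamini-Hochberg adjusted p under 0.05). Over all 13169 genes tested in Hepa1, 29.3% rose and 28.8% fell by that rule. Cfi passed the filter through its higher group, so the 4 rises are not a share of all members. The median log2 change of the 5 was 0.50, against 0.00446 over all genes tested. Fewer cells of a type and less RNA per cell cannot be told apart in these bulk libraries.

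In MEFs, 7 members passed the filter, 2 rose (C3 and C1ra), 4 fell (Serping1, C4b, Cfi and C1s1) and Cd55 was not called. Cfi passed the filter through its higher group here too. Of the 14441 genes tested in MEFs, 27.8% rose and 27.2% fell. Without scaling beyond total counts, rises made up 63.8% of all calls in MEFs, against 50.5% with it. Small MEF changes thus depend on the scaling. In Hepa1 rises made up 58.8% of all calls without it and 50.5% with it, and the member calls there held either way. The median log2 change of the 7 members was -0.13, against 0.0033 over all genes tested.

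**Figure D1:**
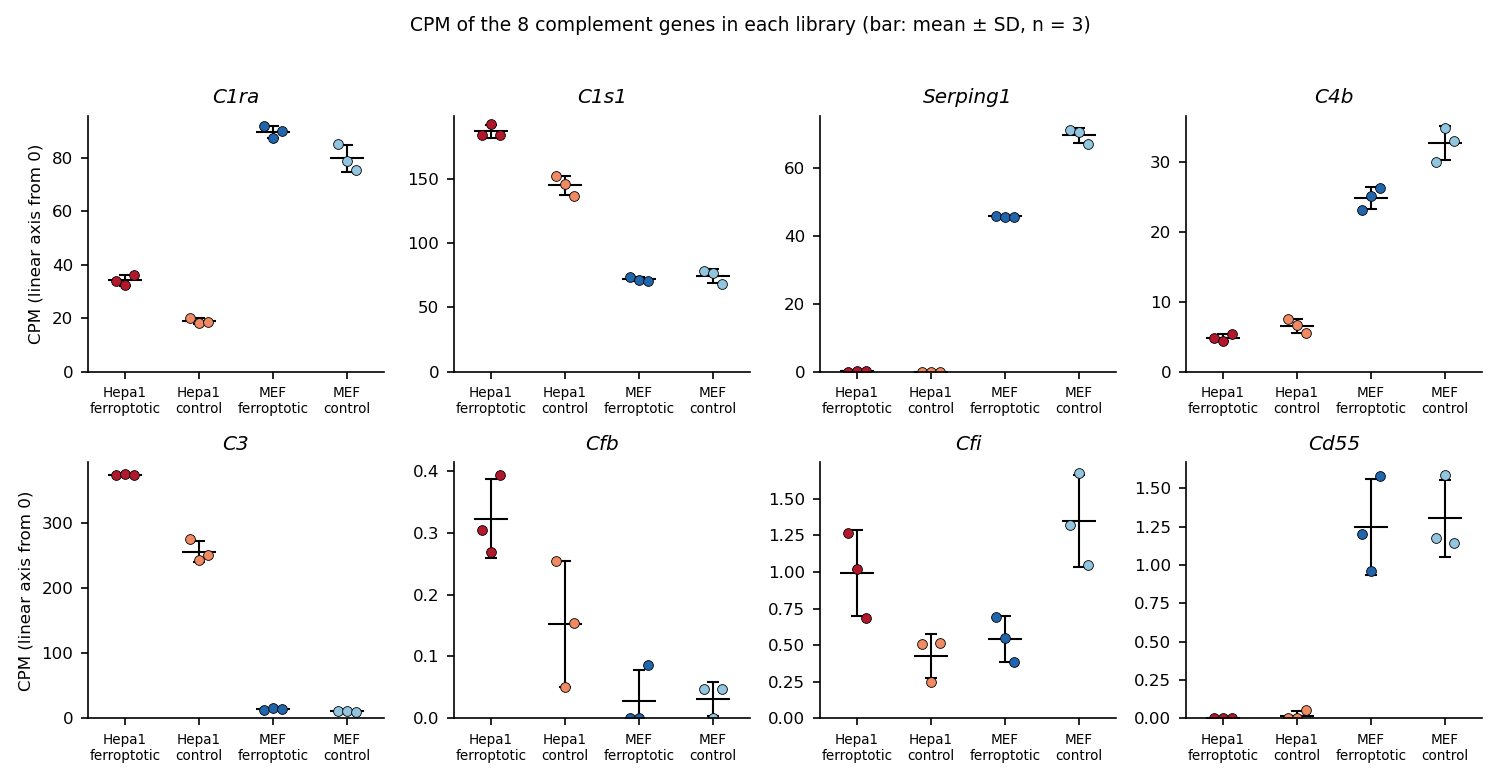
CPM (y axes, linear from 0) of the 8 complement genes in each library, for Hepa1 in ferroptotic and control medium and MEFs in ferroptotic and control medium; points are libraries and bars are the mean ± SD (n = 3). C3 is highest in Hepa1 in ferroptotic medium (373 CPM), Serping1 is near 0 in Hepa1, and Cfi is lower in ferroptotic than control medium in MEFs but higher in Hepa1.

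C1ra encodes C1r, the protease that activates C1s within the C1 complex (ENSMUSG00000055172, chromosome 6, 124512405 to 124523443, plus strand, GRCm38, 11 exons). Its level was 33.8, 32.3 and 36.3 CPM in Hepa1 in ferroptotic medium, against 20.06, 18.03 and 18.60 CPM in control medium. All ferroptotic libraries lay above all control ones. The log2 change was 0.81 (SE 0.0658, edgeR adjusted p = 1.89e-11). MEFs held more C1ra, with 92.02, 87.56 and 89.84 CPM in ferroptotic and 85.3, 78.8 and 75.5 CPM in control medium. Those MEF groups did not overlap either, but the change was small, at 0.10 (SE 0.0370, edgeR adjusted p = 0.0179), and the call was lost without MEF ferroptotic replicate 1 (adjusted p = 0.117), MEF control replicate 2 (0.0546) or MEF control replicate 3 (0.219), and with DESeq2 (0.0833) or with all 12 libraries in the fit (0.0610).

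C1s1 encodes C1s, which cuts C4 and C2 (ENSMUSG00000038521, chromosome 6, 124530345 to 124542359, minus strand, 12 exons), and lies beside C1ra. Hepa1 libraries had 184, 193 and 185 CPM in ferroptotic medium, against 152, 146 and 137 CPM in control medium. The groups did not overlap, and the log2 change was 0.32 (SE 0.0386, edgeR adjusted p = 4.08e-08). MEF libraries had 73.9, 71.6 and 70.5 CPM in ferroptotic medium and 78.5, 77.0 and 68.4 CPM in control medium, and here the groups overlapped. The MEF log2 change of -0.12 (SE 0.0402, edgeR adjusted p = 0.00848) was no longer called without scaling beyond total counts, where it was -0.05 (adjusted p = 0.266). It was also lost without MEF ferroptotic replicate 3 (adjusted p = 0.0581), MEF control replicate 1 (0.0682) or MEF control replicate 2 (0.0759).

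Mice carry a second copy of each protease gene, C1rb and C1s2, in the same stretch of chromosome 6. In Hepa1, C1rb had 59, 49 and 62 reads in ferroptotic medium, against 8, 5 and 7 in control medium, and it passed the filter through its higher group alone. C1s2 had 181, 251 and 248 reads in ferroptotic medium, against 39, 33 and 24 in control medium. Both copies were thus far higher in ferroptotic medium in every library, with log2 changes of 3.03 for C1rb (SE 0.328) and 2.78 for C1s2 (SE 0.194), and edgeR called both. They stayed minor copies: per kb of exon, C1rb was at 10.4% of C1ra in ferroptotic and 2.19% in control Hepa1, and C1s2 at 7.28% and 1.31% of C1s1. MEFs had 2 and 0 reads of C1rb over the ferroptotic and the control group, and 9 and 6 of C1s2. Part of the sequence cannot be assigned to 1 copy. Of the 75-base stretches of C1ra, 40.1% also occur in C1rb, and of those of C1s1, 13.0% also occur in C1s2. With every other gene counted, on either strand, the shares were 42.4% for C1ra and 24.8% for C1s1. The share of C1s1 then includes stretches of Gm16567, which lies on the other strand. Reads that align to both copies may be left out of the counts, so these levels are uncertain. Of the exon bases of C1s1, 18.4% also overlap Gm16567 on the other strand, which had 0 reads in all libraries.

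The sequences before C1s1 and C1s2 are shown because the log2 changes of these neighbouring copies in Hepa1 were 0.32 and 2.78. Both are the 250 bases before the gene start (RefSeq, GRCm38.p6, minus strand, chr6:124542360-124542609 for C1s1 and chr6:124636086-124636335 for C1s2), with motif matches in capitals.
C1s1: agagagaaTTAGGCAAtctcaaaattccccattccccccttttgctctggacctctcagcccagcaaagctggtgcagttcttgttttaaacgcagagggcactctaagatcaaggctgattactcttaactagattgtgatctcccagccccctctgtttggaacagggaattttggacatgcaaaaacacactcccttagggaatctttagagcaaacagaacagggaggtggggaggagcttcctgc
C1s2: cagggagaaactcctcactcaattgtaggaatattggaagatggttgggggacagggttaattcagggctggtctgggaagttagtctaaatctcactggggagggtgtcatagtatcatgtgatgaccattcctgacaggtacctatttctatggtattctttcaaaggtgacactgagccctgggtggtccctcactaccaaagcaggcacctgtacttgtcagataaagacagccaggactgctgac
A search on both strands covered 5 short motifs, C/EBP (TTGCNNAA), NF-kB (GGNNTTTCC), the STAT site GAS (TTCNNNGAA), the interferon element ISRE (GAAANNGAA) and the antioxidant element (TGACNNNGC). No match overlaps another in these windows. The C1s1 window holds 1 C/EBP match on the reverse strand, at -242 to -235, and the C1s2 window holds none of the 5. A second RefSeq start of C1s1 gives the window chr6:124542322-124542571, of which 38 bases lie inside the GENCODE gene. That window holds none of the 5 either, so the C1s1 match depends on the start used. C/EBP matches occur in 9.56% of 32851 windows of this length, NF-kB in 4.93%, GAS in 7.02%, ISRE in 7.13% and the antioxidant element in 10.2%. RefSeq entries were found for 4 of the 8 members. The same search covered C1rb, C1ra and Cd55, whose windows are not shown. The C1rb window held a C/EBP match starting at -135 and a GAS match starting at -119. Of its 250 bases, 136 lie inside the GENCODE gene. The windows of C1ra, with 216 bases inside its GENCODE gene, and of Cd55 held none of the 5.

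The 2 proteases are needed in equal numbers in the C1 complex, but their RNA was not equal. The ratio of C1s1 to C1ra per kb of exon was 5.18, 5.70 and 4.84 in Hepa1 in ferroptotic medium, against 7.22, 7.72 and 7.01 in control medium. In MEFs it was 0.765, 0.779 and 0.747 in ferroptotic medium and 0.877, 0.931 and 0.864 in control medium. The ratio was lower in ferroptotic medium in both cell types with no overlap, and every Hepa1 library had more C1s1 than C1ra while every MEF library had less. A choice added after the data were seen used only unshared 75-base stretches as length. The means were then 3.77 and 5.26 in ferroptotic and control Hepa1 and 0.549 and 0.640 in ferroptotic and control MEFs. The order of the groups was unchanged. For C1s1 that length also leaves out the stretches shared with Gm16567 on the other strand.

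**Figure D2:**
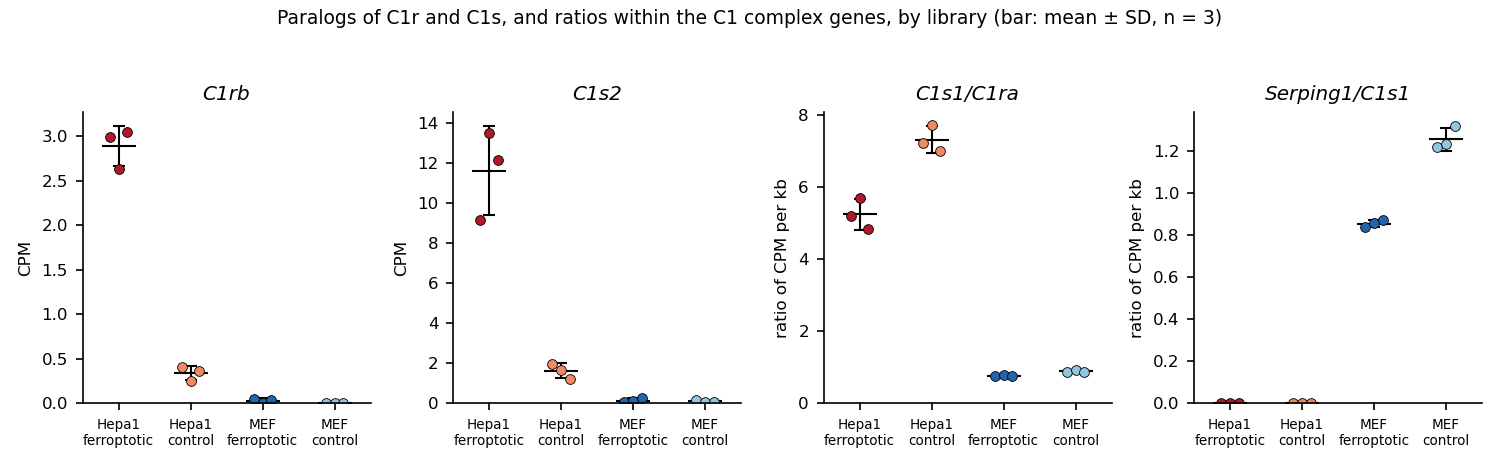
Levels of C1rb and C1s2 (CPM, linear axes from 0) and the per-kb ratios of C1s1 to C1ra and of Serping1 to C1s1, in Hepa1 in ferroptotic and control medium and MEFs in ferroptotic and control medium; points are libraries and bars are the mean ± SD (n = 3). C1rb and C1s2 are high in Hepa1 in ferroptotic medium, and the Serping1 to C1s1 ratio in MEFs averages 0.854 in ferroptotic and 1.26 in control medium.

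Serping1 encodes the C1 inhibitor, a serpin that binds and inactivates C1r and C1s (ENSMUSG00000023224, chromosome 2, 84765387 to 84775444, minus strand, 8 exons). In MEFs it had 45.9, 45.5 and 45.6 CPM in ferroptotic medium, against 71.0, 70.4 and 67.0 CPM in control medium. Every ferroptotic library lay below every control one, and it fell by 0.67 on the log2 scale (SE 0.0407, edgeR adjusted p = 1.44e-20). The per-kb ratio of this inhibitor to C1s1 was 0.836, 0.855 and 0.870 in ferroptotic MEFs and 1.22, 1.23 and 1.32 in control MEFs. A choice made after the data were seen left shared 75-base stretches, also those shared with Gm16567, out of both lengths. The ratio was then 0.644, 0.658 and 0.669 in ferroptotic and 0.937, 0.948 and 1.01 in control MEFs. The ferroptotic libraries lay below the control ones with either length, and whether the control ratio lies above 1 depends on the length used. Hepa1 had almost none, with 0, 1 and 4 reads in ferroptotic and 0 reads in all control libraries. The 4 reads are in replicate 3, the library with MEF signal, and without it 1 read remains in the group.

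C4b encodes C4, the C1s substrate whose large fragment attaches to surfaces (ENSMUSG00000073418, chromosome 17, 34728380 to 34743882, minus strand, 40 exons). It was the member that fell in both cell types. Hepa1 libraries had 4.87, 4.41 and 5.35 CPM in ferroptotic medium, against 7.52, 6.61 and 5.51 CPM in control medium, with a narrow gap between the highest ferroptotic and the lowest control library. The log2 change was -0.47 (SE 0.129, edgeR adjusted p = 0.00272). MEF libraries had 23.2, 25.1 and 26.2 CPM in ferroptotic medium, against 30.0, 34.9 and 33.0 CPM in control medium, again with no overlap, and the log2 change was -0.46 (SE 0.0578, edgeR adjusted p = 9.94e-10). Its paralog C4a holds 22.7% of its 75-base stretches, so some of its reads cannot be placed.

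C3 encodes the central component, which both pathways cleave (ENSMUSG00000024164, chromosome 17, 57203970 to 57228136, minus strand, 42 exons). It rose in both cell types and was the most abundant member in Hepa1. Hepa1 libraries had 373, 374 and 373 CPM in ferroptotic medium, against 275, 243 and 250 CPM in control medium. The ferroptotic libraries lay above all control ones, and the log2 change was 0.50 (SE 0.0374, edgeR adjusted p = 3.93e-12). MEF libraries had 12.9, 15.3 and 14.2 CPM in ferroptotic medium, against 11.0, 11.1 and 9.48 CPM in control medium, also without overlap, and the log2 change was 0.35 (SE 0.0824, edgeR adjusted p = 0.000234). The rises of C3, C1ra and C1s1 in Hepa1 moved with the summed hepatocyte markers given above. They also moved with the summed fibroblast markers, at 2746 to 2815 CPM in ferroptotic and 1814 to 2132 CPM in control Hepa1. Of the 6 fibroblast markers tested 5 rose and 0 fell, where 29.3% of all genes tested rose and 28.8% fell. The fibroblast sum was mostly Col1a1, at 2282 CPM in ferroptotic and 1490 CPM in control Hepa1, and the hepatocyte sum was mostly Trf. In ferroptotic Hepa1, Col1a2 had 23, 19 and 368 reads and Col3a1 88, 105 and 242. The last value of each is from replicate 3, the library with MEF signal. The part of either list in the rises of C3, C1ra and C1s1 was not tested.

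The window before C3 is shown because C3 rose in both cell types (RefSeq, GRCm38.p6, chr17:57228137-57228386, minus strand, the 250 bases before the gene start). Capitals mark its only match to the 5 motifs, a C/EBP match at -45 to -38.
C3: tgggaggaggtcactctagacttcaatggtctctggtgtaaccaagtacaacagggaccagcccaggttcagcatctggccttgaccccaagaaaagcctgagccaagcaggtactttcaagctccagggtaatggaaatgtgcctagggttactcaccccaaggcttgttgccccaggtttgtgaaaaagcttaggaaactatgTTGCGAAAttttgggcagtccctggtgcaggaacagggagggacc

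With C3 higher and C4b lower in ferroptotic medium, the ratio of C3 to C4b per kb of exon was 84.9, 93.9 and 77.1 in ferroptotic and 40.5, 40.6 and 50.2 in control Hepa1. In MEFs it was 0.617, 0.675 and 0.602 in ferroptotic and 0.406, 0.353 and 0.318 in control medium. Neither cell type had overlapping groups. C3 made up 62.1% of the members' summed CPM in ferroptotic and 59.9% in control Hepa1, and 5.70% in ferroptotic and 3.91% in control MEFs.

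Cfb encodes factor B, the protease of the alternative pathway enzyme (ENSMUSG00000090231, chromosome 17, 34856374 to 34862518, minus strand, 17 exons). It had 6, 5 and 8 reads in ferroptotic and 5, 1 and 3 in control Hepa1, and 0, 0 and 2 reads in ferroptotic and 1, 0 and 1 in control MEFs. It failed the filter in both cell types. The Hepa1 ratio of 2.13 has a 95% counting interval of 0.916 to 5.33, which includes no change. These counts are uncertain, since 79.5% of its exon bases are also annotated to the overlapping gene Gm20547 on the same strand, which had 0 reads in all 12 libraries, and reads that fall on both genes can enter the ambiguous line of the count table.

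Cfi encodes factor I, the protease that inactivates C3b and C4b with the help of cofactors (ENSMUSG00000058952, chromosome 3, 129835884 to 129875332, plus strand, 15 exons). It was scarce and moved in opposite directions. Hepa1 libraries had 25, 19 and 14 reads in ferroptotic medium, against 10, 5 and 10 in control medium, and the log2 change was 1.17 (SE 0.361, edgeR adjusted p = 0.00495). MEF libraries had 15, 12 and 9 reads in ferroptotic medium, against 28, 38 and 22 in control medium, and the log2 change was -1.39 (SE 0.303, edgeR adjusted p = 4.44e-05). Neither pair of groups overlapped, and both calls held when any 1 library was left out, with adjusted p up to 0.0451 in Hepa1.

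Cd55 encodes decay-accelerating factor, a membrane protein that breaks up the enzymes that cleave C3 (ENSMUSG00000026399, chromosome 1, 130439027 to 130462744, minus strand, 10 exons). It had 26, 21 and 37 reads in ferroptotic and 25, 36 and 24 in control MEFs, and these ranges overlapped. The log2 change of -0.13 was not called (95% interval -0.61 to 0.35, edgeR adjusted p = 0.673). Hepa1 had 0 reads in ferroptotic medium and 1 read over the control group.

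**Figure D3:**
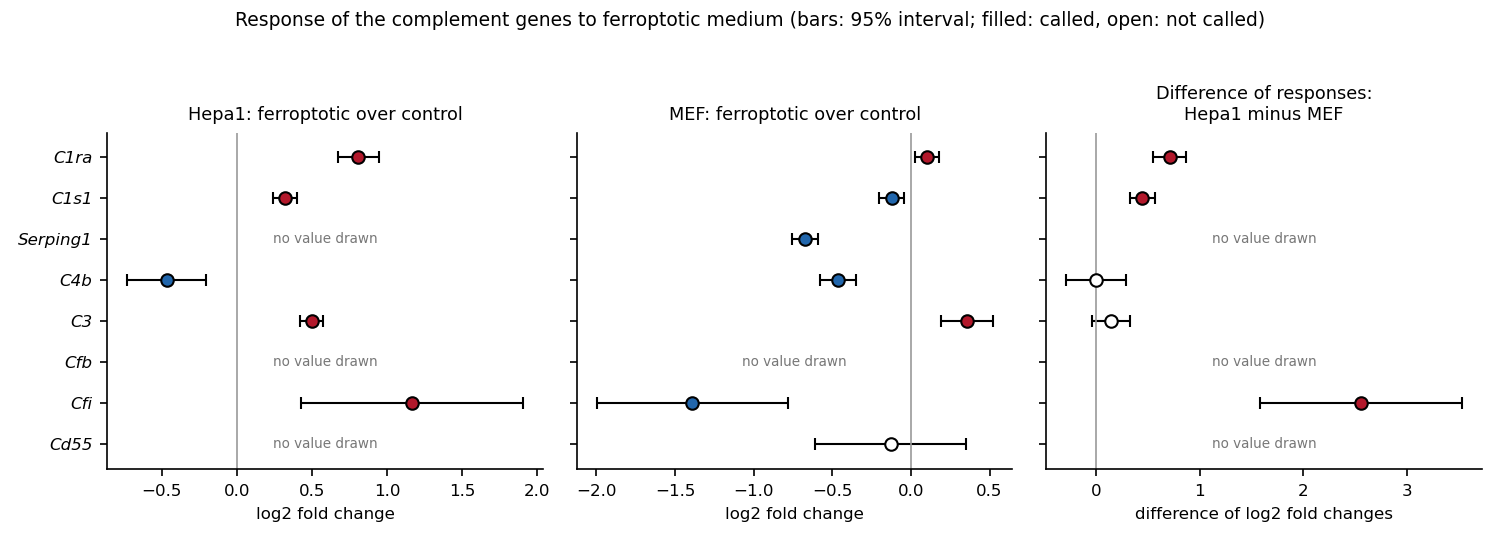
Log2 fold change in ferroptotic over control medium in Hepa1 and in MEFs, and the difference between these responses (x axes), for each member; points are edgeR estimates, bars are 95% intervals, filled points were called and open points were not. Genes that failed the filter, or had a group with 0 reads, have no value drawn. C4b lies at -0.47 in Hepa1 and -0.46 in MEFs, and Cfi lies on opposite sides of 0.

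Whether the 2 responses differ was tested directly as an interaction over all 12 libraries. Of 7 members tested, 4 had a higher response in Hepa1 than in MEFs and 0 a lower one, where over all 15627 genes tested 23.3% were higher and 20.9% lower. Serping1 and Cd55 entered this test through their MEF reads alone. The difference was 0.71 for C1ra (SE 0.0777, edgeR adjusted p = 1.50e-10), 0.45 for C1s1 (SE 0.0600, adjusted p = 2.95e-08) and 2.56 for Cfi (SE 0.485, adjusted p = 9.24e-06). The fourth, Serping1 at 4.33 (edgeR adjusted p = 0.0102), rests on 5 Hepa1 reads, and without Hepa1 ferroptotic replicate 3 its value was 2.84 (adjusted p = 0.219). For C3 the difference was 0.15 (95% interval -0.03 to 0.33, adjusted p = 0.195), and for C4b it was -0.0003 (95% interval -0.29 to 0.29, adjusted p = 1.00).

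Levels also differed between the cell types. C3 was higher in Hepa1 than in MEFs, by 4.18 on the log2 scale in ferroptotic medium (SE 0.0604) and 4.03 in control medium (SE 0.0680). C1s1 was higher in Hepa1 by 0.84 (SE 0.0421) in ferroptotic and 0.39 (SE 0.0428) in control medium. C1ra was lower in Hepa1, by a log2 difference of -1.93 in ferroptotic and -2.64 in control medium, and C4b by -2.88 in both. Serping1 and Cd55 are given as CPM ratios, without the scaling behind the edgeR values. Serping1 was lower in ferroptotic Hepa1 than in ferroptotic MEFs by a ratio of 536 (95% counting interval 229 to 1651), and by 1749 (interval 314 to 69098) without Hepa1 ferroptotic replicate 3. In control medium it was at least 1369-fold lower in Hepa1, with 3 reads over the group as the floor. Cd55 was at least 24.6-fold lower in Hepa1 in ferroptotic medium by the same floor. Cfi was lower in Hepa1 in control medium (-2.22, SE 0.354) and not called in ferroptotic medium (0.33, edgeR adjusted p = 0.331). In all, 2 members were higher and 4 lower in Hepa1 in ferroptotic medium, where 41.5% and 46.7% of all genes were, and 2 were higher and 5 lower in control medium, where 40.7% and 46.0% were. Serping1 and Cd55 passed the filter through the MEF groups alone, where they are higher, so these counts are not a share of all members. Scaling matters here, since without it the median of all genes moved by 0.54 in ferroptotic and 0.56 in control medium on the log2 scale, toward Hepa1, and Cfi in ferroptotic medium was then called higher in Hepa1 (0.87, edgeR adjusted p = 0.0123).

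Per kb of exon, the order of the members was C3, C1s1, C1ra, C4b, Cfi and Cfb in Hepa1 in both kinds of medium. Mean levels there were 72.6, 59.8 and 11.5 CPM per kb for C3, C1s1 and C1ra in ferroptotic medium, against 49.7, 46.3 and 6.34 in control medium. In control Hepa1 the ranges of C3 and C1s1 overlapped. In MEFs the order began with C1ra, C1s1 and Serping1 in ferroptotic medium, at 30.1, 23.0 and 19.6 CPM per kb. In control MEFs it began with Serping1, C1ra and C1s1, at 29.9, 26.8 and 23.9 CPM per kb, and the ranges of C1ra and C1s1 did not overlap. Lengths here include the shared stretches, so C1ra, C1s1, C4b and Cfb may be understated.

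**Figure D4:**
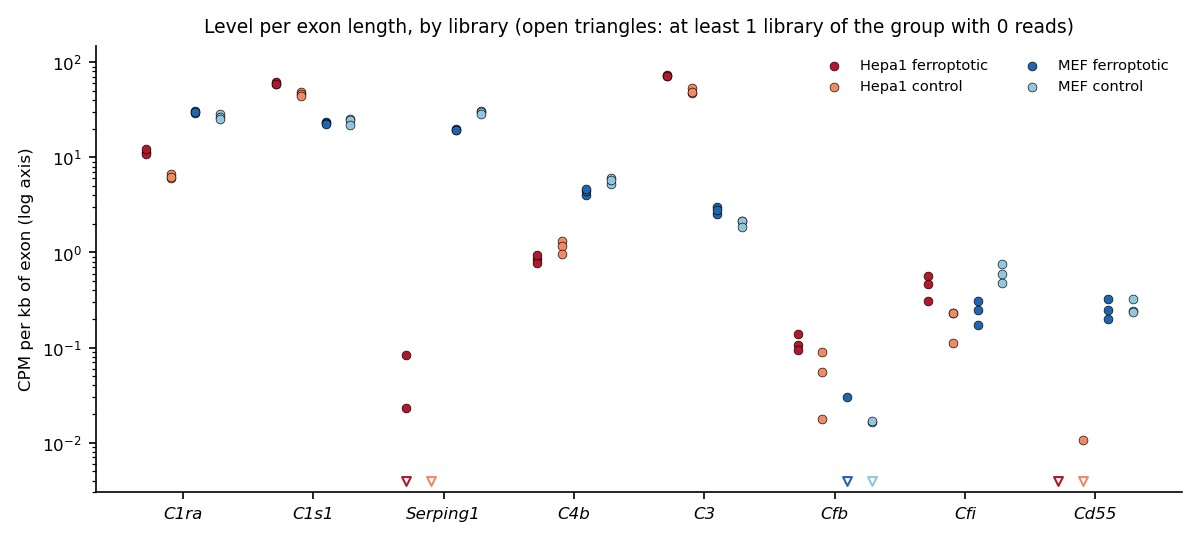
CPM per kb of exon (log axis) of the 8 members in each library, coloured by Hepa1 ferroptotic, Hepa1 control, MEF ferroptotic and MEF control; open triangles at the bottom mark groups in which at least 1 library had 0 reads. C3 and C1s1 lead in Hepa1, and C1ra, C1s1 and Serping1 lead in MEFs.

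Other complement genes were taken from a list of 53 by role, of which 52 had an identifier in the annotation. In Hepa1, 13 passed the filter, 4 rose and 3 fell, with a median log2 change of 0.09, and in MEFs 15 passed, 7 rose and 3 fell, with a median of 0.04. Over all genes tested 29.3% rose and 28.8% fell in Hepa1, and 27.8% rose and 27.2% fell in MEFs. Some of the listed genes, such as C1rb in Hepa1 and Cfp in MEFs, passed the filter through their higher group alone. The counts are therefore not a share of the whole list. No gene of C1q, the recognition subunit of C1, passed the filter in either cell type, and of 7 terminal pathway genes only C8g did. C1rl, a relative of C1r, rose in Hepa1 (0.39, SE 0.107) and fell in MEFs (-1.03, SE 0.0585). Masp1, a protease of the lectin pathway, had 122 ± 6.59 CPM in ferroptotic and 184 ± 8.55 CPM in control MEFs (SD, n = 3 each), a log2 change of -0.66. C2, the C1s substrate that pairs with C4, had 42.2 ± 0.680 CPM in ferroptotic and 38.4 ± 0.428 CPM in control Hepa1 (SD, n = 3 each) and was not called (edgeR adjusted p = 0.144), and 42.8% of its exon bases overlap Gm20547.

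Of the fluid phase regulators, C4bp, which binds C4b, rose in MEFs. It had 291, 328 and 324 reads in ferroptotic MEFs, against 195, 232 and 194 in control MEFs. The groups did not overlap, and the log2 change was 0.49 (SE 0.0820). Clu, the gene of clusterin, was called higher in MEFs at 0.09 (SE 0.0286), and that call was lost without MEF ferroptotic replicate 1 (edgeR adjusted p = 0.0671) or MEF control replicate 3 (0.0912).

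**Figure D5:**
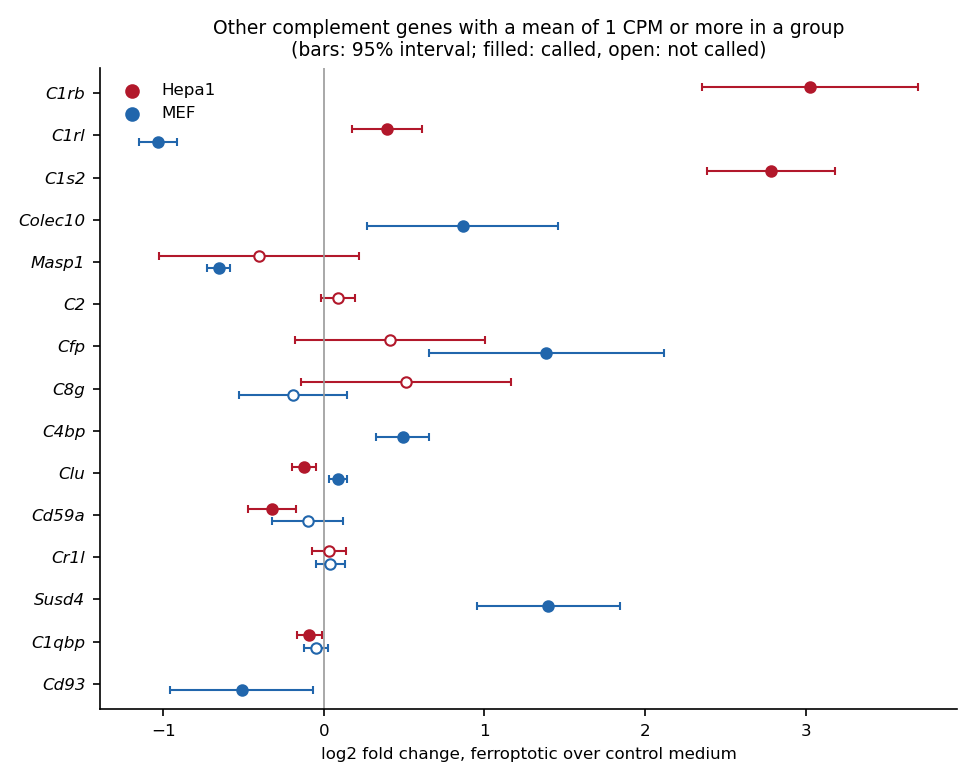
Log2 fold change in ferroptotic over control medium (x axis) of other complement genes that averaged 1 CPM or more in a group, in Hepa1 and in MEFs; points are edgeR estimates, bars are 95% intervals, filled points were called and open points were not. A gene that failed the filter in a cell type has no point for it. C1rb and C1s2 lie at 3.03 and 2.78 in Hepa1, and C1rl lies at 0.39 in Hepa1 and -1.03 in MEFs.

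Likeness to other genes was measured as the Pearson correlation of log2(CPM + 1) over the 12 libraries among 12391 protein-coding genes whose mean reached 1 CPM in a group. The 12 points come from 2 cell types and share their libraries, so the correlations are given as a description. The genes most like C3 were Map4k4 (r = 0.9995), Stat6 and Golga2, and those most like C1ra were Cpe (r = 0.998), Ptprs and Mxra8. Serping1 was most like Piezo2, Pdpn and Ism1 (r = 0.9999 each), C4b like Nlgn2 (r = 0.996) and C1s1 like Vgll4 (r = 0.998). Cfi had the lowest correlation of the 8 with its nearest gene, Pdia5 (r = 0.889).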

How the data were processed

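The deposited files hold raw read counts per Ensembl gene, made by the authors from 12 libraries. The tools named per the submitters' processing notes are STAR 2.7.10a, HTSeq 0.9.1, Trimmomatic 0.39 and FastQC 0.11.9, and the build is mm10 (GRCm38). The strand setting and annotation release were both not given in the sources used here. HTSeq's 5 summary lines were set apart. Reads on no gene were at most 2.58% and ambiguous reads at most 4.03% of a library.

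Groups came from the sample titles. CPM are counts over the library total. Fold changes are from edgeR 4.0.16 (filterByExpr, TMM, quasi-likelihood F-test) in R 4.3.3, adjusted over all genes tested and called under 0.05, on 6 libraries per cell type and on all 12 for the interaction and the comparison of cell types. SEs come from the model's information. Low counts have exact binomial intervals, with a floor of 3 counts, and these cover counting error only. Exon lengths, overlaps and shared 75-base stretches come from GENCODE M21. Alternatives were DESeq2 1.42.0, limma-voom (limma 3.58.1), other scalings and filters, a replicate block, 1 shared fit and leaving out each library. The pipeline was tested on simulated data.

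The 8 members and the other lists were chosen with earlier results of these data known. All members are named, and other complement genes only where they averaged 1 CPM or more in a group, except Cd46, named for its difference between cell types, C1qa and C1qc, named as macrophage markers, and C4a, named for the sequence it shares with C4b. Some listed genes are counted in the lists but not reported by name here.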

Additional observations from a re-analysis of the deposited data

Results flagged for a closer look

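Of the members, 4 responded differently in Hepa1 and MEFs by the interaction test, and each is named because the difference itself was called. On the log2 scale, Hepa1 minus MEF, it was 0.71 for C1ra, 0.45 for C1s1, 2.56 for Cfi and 4.33 for Serping1. That of Serping1 rests on 5 Hepa1 reads, 4 of them in the library with MEF signal. Among the other complement genes the difference was 1.43 for C1rl, -0.21 for Clu and -2.70 for Cd46, the gene of a membrane cofactor of factor I. For Cd46 all groups had a mean under 1 CPM.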

How the results depend on the processing

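All 5 member calls in Hepa1 held under every alternative that tested them, with 4 calls where at least 1 CPM in 3 libraries was required, since Cfi then drops out, and 6 with all 12 libraries in the fit, where Serping1 is added. Leaving out a library in turn gave 5 calls each time in Hepa1, 4 to 6 in MEFs and 3 to 4 for the interaction. The labels do not say whether the replicate numbers pair samples. Deviations of same-numbered libraries correlated at -0.0723 to -0.0344 in Hepa1 and 0.00713 to 0.119 in MEFs, which cannot settle it. A replicate block left the counts at 5 in Hepa1, 6 in MEFs and 4 for the interaction. Of the 53 other complement genes, 18 were tested for a difference between responses and 3 were called. Over all genes tested, 23.3% had a higher and 20.9% a lower response in Hepa1. The count called was 5 with no filter on low counts, 7 with limma-voom, and 3 to 5 with a library left out. Values near 0 turned direction: Cd55 in MEFs ranged from -0.34 to 0.0492 with a library left out (0.024 without MEF ferroptotic replicate 2), and the difference for C4b was 0.0127 with no filter, 0.00367 with limma-voom and -0.102 to 0.105 with a library left out. The causes were not tested. Over all named genes, 606 values kept direction and call, 12 lost the call, 2 gained one and 11 turned. Depth limits Cfb, Cfi, Cd55 and Hepa1 Serping1 most.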

Other observations

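Regulators known to act on complement genes were read from a list of 36 transcription factors, cytokines, receptors and their inhibitors. In Hepa1, 28 passed the filter, 8 rose and 18 fell in ferroptotic relative to control medium, and in MEFs 30 passed, 8 rose and 17 fell. Over all genes tested, 29.3% rose and 28.8% fell in Hepa1, and 27.8% rose and 27.2% fell in MEFs. Of the interferon pathway factors, Irf1, Irf9 and Stat2 rose in both cell types. Irf1 had 66.6 ± 2.50 CPM in ferroptotic and 54.7 ± 1.80 CPM in control Hepa1, and 19.7 ± 0.392 CPM in ferroptotic and 13.7 ± 1.18 CPM in control MEFs (SD, n = 3 each), with log2 changes of 0.24 in Hepa1 and 0.46 in MEFs.

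Of the C/EBP and interleukin 6 pathway genes, Cebpb, Cebpd and Socs3 fell in both cell types, while Cebpa rose in MEFs (0.30) and Il6ra (0.64) and Lifr (0.94) rose in Hepa1. Cebpd had 4.53 ± 0.448 CPM in ferroptotic and 8.01 ± 0.635 CPM in control Hepa1, and 37.0 ± 0.712 CPM in ferroptotic and 109.9 ± 3.82 CPM in control MEFs (SD, n = 3 each). Socs3, a feedback inhibitor of interleukin 6 signalling, changed by -0.79 in Hepa1 and -1.95 in MEFs, and Il6 had 14, 15 and 11 reads in ferroptotic and 112, 121 and 127 in control MEFs. Relb and Nfkb2, of the NF-kB family, fell in Hepa1 (-1.14 and -0.83) and rose in MEFs (0.25 and 0.12). The family did not move together in MEFs. Rela had 207 CPM in ferroptotic and 298 CPM in control Hepa1, and 85.7 CPM in ferroptotic and 93.8 CPM in control MEFs. Nfkb1 had 180 CPM in ferroptotic and 208 CPM in control Hepa1, and 135 CPM in ferroptotic and 133 CPM in control MEFs. Whether these genes bear on the complement genes was not tested.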
